A study of Mus musculus with 4 samples.

Results

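The genes described here encode parts of the basement membrane, the sheet of extracellular matrix on which the colonic epithelium rests: *Hspg2*, *Agrn*, *Nid1*, *Lama3*, *Lama5*, *Lamb2*, *Lamb3*, *Lamc1* and *Col4a1*. These 9 of the 36144 gene names in the count table were picked by symbol, *Hspg2* because it was among the genes raised most by butyrate and the other 8 with earlier results of these data in view. Their differences between butyrate-treated and untreated cultures are therefore a description, with no test. Colonoids, 3-dimensional cultures of mouse colonic epithelium in Matrigel, came from a male mouse aged 24 weeks according to the labels. They were left untreated or given 2 mM sodium butyrate and harvested on day 2 (48 h) or day 3 (72 h). Each of these 4 conditions has 1 library, so no difference can be set against the spread between cultures. The labels give the genotype as WT, whereas the methods of the study describe Hes1-GFP reporter mice of both sexes and the legend for the sequenced colonoids names 1 Hes1-GFP mouse as their source. By that legend the cultures share an animal. The labels give all 4 the same age and passage (3). All cultures were kept in the same medium, which contained EGF, Noggin, R-spondin, CHIR99021 and Y-27632.

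Laminins are trimers of an alpha, a beta and a gamma chain that polymerise into a network held to cells by integrins and dystroglycan. Collagen IV forms another, cross-linked network, nidogens bridge the networks, and the proteoglycans perlecan and agrin carry heparan sulphate chains that bind growth factors. In the intestine both the epithelium and the mesenchyme beneath it supply components. Matrigel is itself an extract of a mouse tumour rich in basement membrane protein, but RNA counts report only what the cells transcribe.

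Library totals lay between 20790225 and 24207840 counts. Counts were divided by size factors of 0.926 to 1.10 to give normalised counts, and log2 differences were taken after adding 1. The intervals in parentheses are at 95% and cover counting error only. All 9 genes exceeded 10 counts in 2 or more libraries, as did 13979 genes in all, and the median difference of these 13979 genes was −0.01 on day 2 and 0.00217 on day 3. The summed normalised count of 8 epithelial markers was 142692 to 158458. For other cell types the sums over the 4 libraries were 192 to 255 (8 fibroblast and pericyte markers), 9.20 to 14.5 (5 smooth muscle markers), 36.3 to 68.0 (4 enteric glia markers) and 7.16 to 24.8 (4 immune cell markers). Of the fibroblast and pericyte markers, *Col3a1* and *Lum* had 0 counts in every library and *Col1a1*, *Col1a2*, *Dcn* and *Pdgfra* at most 13, while *Thy1* had 119 to 149 and *Pdgfrb* 55 to 105. *Pdgfrb* had log2 differences of −0.40 (−0.90 to 0.08) and −0.79 (−1.30 to −0.32), and *Thy1* −0.16 and 0.27, both with intervals that include 0. The part of such cells in the results was not tested. The 6 endothelial markers summed to 76.7 and 83.9 without butyrate and to 127 and 103 with it. They did not move together: *Vwf* was higher with butyrate on both days (0.88 and 1.30) and *Tek* also, on at most 12 counts, *Kdr* was lower on both days on at most 8 counts, and *Pecam1* had 0.69 (−0.11 to 1.58) and −0.81 (−1.63 to −0.08). The defining genes *Cdh5* and *Emcn* had at most 1 count in a library. The part of endothelial cells in the results was not tested. Fewer cells of a type and less RNA per cell cannot be told apart in these pooled cultures.

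Perlecan and the laminin alpha5 and beta2 chains were more abundant in RNA with butyrate on both days, the laminin alpha3 chain was less abundant on both days, and the others differed less or in a way that depended on the day. On day 2, 3 of the 9 genes were at least 2-fold higher (*Hspg2*, *Nid1* and *Lama5*), against 6.94% of all tested genes, and on day 3 also 3 (*Hspg2*, *Lama5* and *Lamb2*), against 4.53%. At 1.5-fold the number was 4 on each day, against 13.1% and 9.50%. *Lama3* was the 1 gene at least 1.5-fold lower, against 8.90% and 8.53%, and 0 genes were 2-fold lower, against 3.08% and 3.78%. On both days together, 2 of the 9 were at least 2-fold higher (2.55% of all tested genes) and 3 at least 1.5-fold higher (5.51%), whereas 1 was at least 1.5-fold lower (2.73%) and 0 were 2-fold lower (0.887%). By any amount, 7 were higher on both days (30.4%) and 1 was lower (31.3%). Nothing is read from these shares, because the contrasts served to choose the genes. The libraries of day 2 and day 3 are not replicates, so the order of treated and untreated libraries below is only described. The share of all genes with such an order was not computed. The median log2 difference of the 9 genes was 0.35 on day 2 and 0.41 on day 3.

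**Figure D1:**
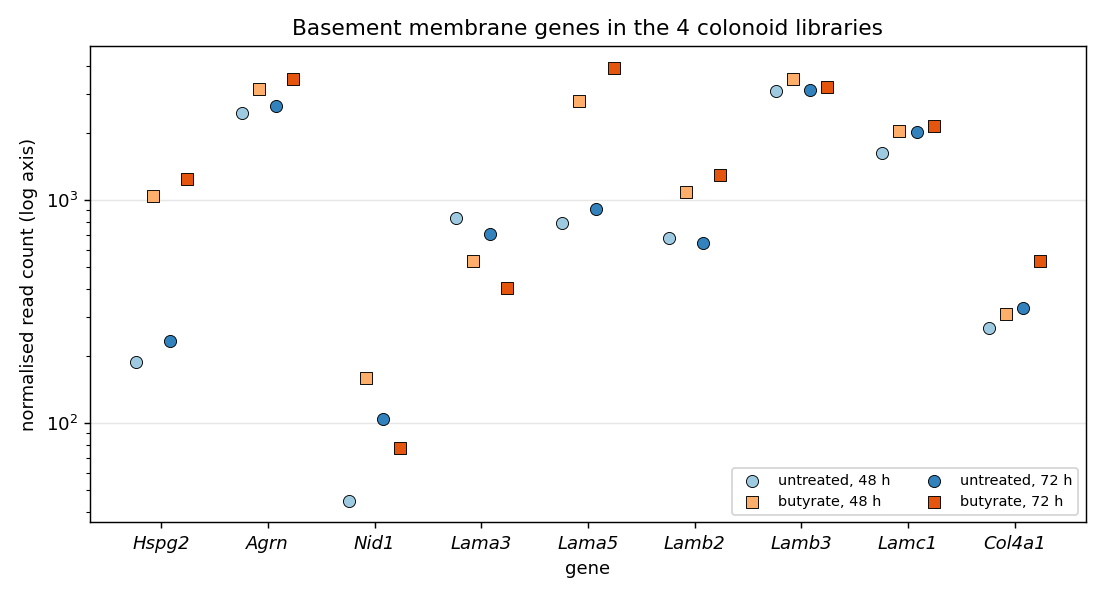
Normalised counts (log axis) of the 9 basement membrane genes in the 4 libraries, with 1 point per library, circles for untreated and squares for butyrate-treated colonoids. *Hspg2* stands at 188 and 233 in the untreated and at 1042 and 1239 in the treated libraries, and for *Lama3* both treated libraries lie below both untreated ones.

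Perlecan, encoded by *Hspg2* (chromosome 4, 137468769 to 137570630, plus strand, GENCODE on GRCm38), is a large secreted proteoglycan that binds laminin, nidogen and collagen IV. Untreated colonoids held 184 *Hspg2* counts on day 2 and 236 on day 3, and treated colonoids held 1149 and 1147. Both treated libraries lay far above both untreated ones. The gene was 5.52-fold higher on day 2, a log2 difference of 2.46 (2.24 to 2.70), and 5.30-fold higher on day 3, with 2.41 (2.21 to 2.62). It ranked 156 and 87 among the 13979 tested genes. The day 3 value minus the day 2 value was −0.06 (−0.36 to 0.24), so a change in the size of the difference was not detectable at this depth. Without butyrate, *Hspg2* was higher on day 3 than on day 2 by 0.31 (0.02 to 0.59).

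*Lama5* (chromosome 2, 180176373 to 180225859, minus strand) encodes the alpha5 chain, a laminin chain of many mature epithelial basement membranes. Its counts without butyrate were 776 on day 2 and 927 on day 3, and with butyrate 3084 and 3640. The log2 differences were 1.82 (1.70 to 1.93) and 2.10 (2.00 to 2.21), or 3.52-fold and 4.29-fold. The difference was larger on day 3 by 0.28 (0.13 to 0.44). From day 2 to day 3 the gene was higher by 0.49 (0.42 to 0.56) with butyrate and by 0.21 (0.07 to 0.35) without.

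*Lamb2* (chromosome 9, 108479736 to 108490530, plus strand) encodes the beta2 chain, which can join alpha5 and gamma1. It had 663 and 648 counts in the untreated libraries and 1203 and 1197 in the treated ones. After scaling, these were 678 and 639.8 against 1091 and 1293. With butyrate the gene was higher on day 3 than on day 2 by 0.24 (0.13 to 0.36). The log2 difference was 0.69 (0.55 to 0.83) on day 2 and 1.01 (0.88 to 1.15) on day 3. The second value lay just past 2-fold and its interval included that limit, while *Lamb2* on day 2 lay short of it.

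The sequences upstream of these 3 genes are shown because the genes were higher together, with that of *Agrn*, whose differences were small, beside them. RefSeq windows on GRCm38.p6, matched by symbol, were used for 7 of the 9 genes. *Agrn* has 2 RefSeq starts, and the upstream one, at the start of the annotated gene, is printed. Each stretch starts 250 bases before the RefSeq start, ends at the base before the first annotated exon and is written on the strand of the gene: *Hspg2* at chr4:137468553-137468768 (plus), *Lama5* at chr2:180225860-180226109 (minus), *Lamb2* at chr9:108479612-108479735 (plus) and *Agrn* at chr4:156197489-156197738 (minus). Capitals mark GC boxes, GGGCGG or the reverse complement CCGCCC.
Hspg2: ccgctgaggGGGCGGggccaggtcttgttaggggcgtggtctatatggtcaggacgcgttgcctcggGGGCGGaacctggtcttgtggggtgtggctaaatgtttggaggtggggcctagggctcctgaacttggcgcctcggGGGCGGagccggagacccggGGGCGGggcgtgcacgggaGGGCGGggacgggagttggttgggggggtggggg
Lama5: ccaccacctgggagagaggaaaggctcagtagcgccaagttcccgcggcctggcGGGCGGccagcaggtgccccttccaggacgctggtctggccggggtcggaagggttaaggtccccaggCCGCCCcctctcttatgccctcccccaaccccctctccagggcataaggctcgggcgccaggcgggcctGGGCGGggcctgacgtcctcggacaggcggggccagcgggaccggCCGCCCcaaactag
Lamb2: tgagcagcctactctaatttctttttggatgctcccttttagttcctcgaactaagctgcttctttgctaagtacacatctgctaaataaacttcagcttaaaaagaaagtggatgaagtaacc
Agrn: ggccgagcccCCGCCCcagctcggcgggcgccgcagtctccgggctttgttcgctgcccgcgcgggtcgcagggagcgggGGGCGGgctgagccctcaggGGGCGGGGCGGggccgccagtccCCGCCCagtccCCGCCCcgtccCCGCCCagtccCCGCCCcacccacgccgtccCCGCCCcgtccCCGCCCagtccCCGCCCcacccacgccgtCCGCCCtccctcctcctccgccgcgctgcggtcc

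In the 250 bases before these starts, the GC box occurred 5 times for *Hspg2*, 4 times for *Lama5*, 12 times for *Agrn*, where a pair of matches shares bases, and 0 times for *Lamb2*. It occurred in 32.7% of 32851 such RefSeq windows, and 4.09% held 4 or more. CpG dinucleotides, 1 of which lies in every GC box, numbered 20, 19, 35 and 3 in the same order, against a median of 6. Before the other *Agrn* start (window at chr4:156186260-156186509) there were 2 GC boxes and 8 CpG. The TATA box (TATAAA or TTTATA) and the CCAAT box (CCAAT or ATTGG) were not found in these windows, while 12.4% and 33.8% of all windows held them. The count for *Agrn* depends on which start is taken. The RefSeq starts of *Hspg2* (137468803) and *Lamb2* (108479862) lie inside the annotated genes, so parts of their windows are not upstream. Of the other genes with a window, *Nid1* had 1 GC box, *Col4a1* 0 and *Lamb3* 0 in both of its windows. No window was used for *Lamc1* or for *Lama3*, the gene lower on both days, so their GC boxes were not counted. The part of GC boxes in the differences with butyrate was not tested.

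*Agrn* (chromosome 4, 156165290 to 156197488, minus strand) encodes agrin, a heparan sulphate proteoglycan that binds laminin and dystroglycan. Its counts were 2416 and 2678 in untreated and 3479 and 3246 in treated colonoids. After scaling, the treated libraries (3156 and 3506 normalised counts) both lay above the untreated ones (2470.4 and 2644). The log2 differences were 0.35 (0.28 to 0.43) on day 2 and 0.41 (0.33 to 0.48) on day 3. Agrin and perlecan, the heparan sulphate proteoglycans among the 9 genes, thus differed by unlike amounts.

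*Lama3* (chromosome 18, 12333819 to 12583013, plus strand) encodes the alpha3 chain, which assembles with beta3 in the laminin of hemidesmosomes. It had 811 and 714 counts without butyrate, on day 2 and day 3, and 587 and 374 with it. The higher treated library lay below the lower untreated one. The log2 difference was −0.64 (−0.79 to −0.48) on day 2 and −0.80 (−0.99 to −0.62) on day 3. Without butyrate *Lama3* was also lower on day 3 than on day 2, by −0.23 (−0.38 to −0.09).

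*Lamb3* (chromosome 1, 193207699 to 193343878, plus strand), for the beta3 chain, had 3004 and 3156 counts in untreated and 3847 and 2988 in treated colonoids. Its log2 differences, 0.18 (0.12 to 0.25) and 0.05 (−0.02 to 0.12), were small. Of the partner chains alpha3 and beta3, alpha3 had the larger difference on both days.

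*Lamc1* (chromosome 1, 153218922 to 153332786, minus strand) encodes gamma1, the partner of alpha5 with beta1 or beta2. Untreated colonoids held 1594 and 2048 counts and treated colonoids 2258 and 1998. The log2 differences were 0.33 (0.24 to 0.42) on day 2 and 0.09 (0.00 to 0.18) on day 3. The untreated libraries differed from each other by 0.31 (0.22 to 0.41), about as much as butyrate and untreated did on day 2.

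**Figure D2:**
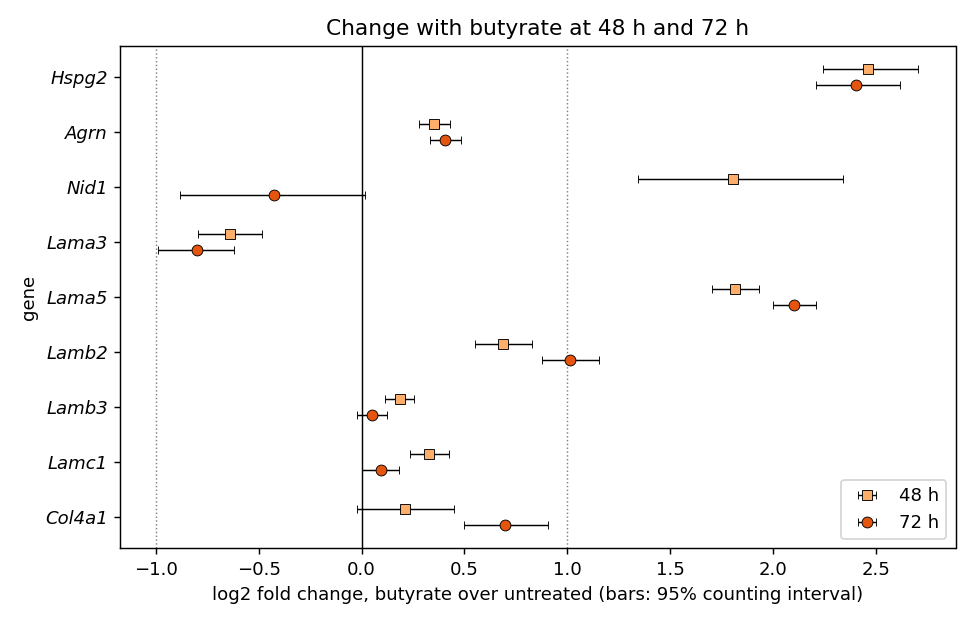
Log2 differences between treated and untreated colonoids for the 9 genes, with separate markers for 48 h (day 2) and 72 h (day 3) and bars for 95% counting intervals. *Hspg2* (2.46 and 2.41) and *Lama5* (1.82 and 2.10) lie past 2-fold on both days, and *Nid1* lies on opposite sides of 0 (1.80 and −0.42).

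The make-up of the laminin chains was compared as shares of normalised counts per kb of exon within a chain family. *Lama5* made up 47.2% (44.8 to 49.7) of the alpha chains in untreated and 83.1% (81.8 to 84.3) in treated colonoids on day 2. On day 3 its share was 55.0% (52.5 to 57.4) and 90.0% (89.0 to 90.9). *Lama3* supplied nearly all of the rest, and *Lama1*, the alpha chain of Matrigel's laminin, had 0 counts in each library, where up to 3 are allowed by a count of 0. *Lama3* has a long and a short coding transcript, and which was transcribed cannot be told from counts per gene. With the length of the short transcript, a setting chosen after seeing the data, the *Lama5* shares were 31.7% and 71.8% on day 2 and 38.7% and 82.4% on day 3.

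*Lamb2* made up 19.1% (17.8 to 20.4) of the beta chains in untreated and 25.1% (23.9 to 26.3) in treated colonoids on day 2, and 18.1% (16.9 to 19.4) and 29.9% (28.6 to 31.4) on day 3. *Lamb3* held 68.7% to 81.2% and *Lamb1*, for beta1, at most 1.45%. *Lama5* and *Lamb2* each had a larger share in both treated libraries than in either untreated one.

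**Figure D3:**
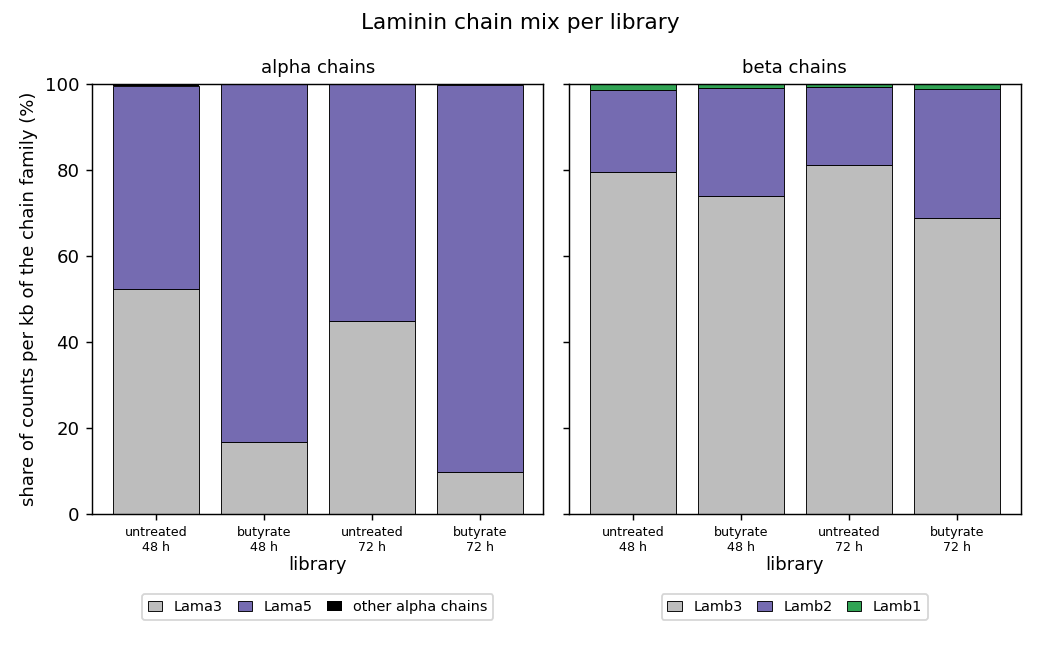
Share (%) of each laminin chain among the normalised counts per kb of exon of its family, with 1 stacked bar per library for the alpha and beta chains. *Lama5* takes 83.1% and 90.0% of the alpha chains in the treated libraries, against 47.2% and 55.0% in the untreated ones.

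*Nid1* (chromosome 13, 13437551 to 13512269, plus strand) encodes nidogen-1, the bridge between laminin and collagen IV. It had 44 and 106 counts in the untreated libraries and 176 and 72 in the treated ones. The untreated library of day 3 lay between the treated ones. The log2 difference was 1.80 (1.34 to 2.34) on day 2 and −0.42 (−0.88 to 0.02) on day 3, an interval that includes 0. The day 3 value minus the day 2 value was −2.23 (−2.87 to −1.59), the largest such gap among the 9 genes. Without butyrate *Nid1* was higher on day 3 than on day 2 by 1.20 (0.70 to 1.76), and with butyrate the value was −1.03 (−1.45 to −0.63). Its relative *Nid2*, named after its values were seen, had differences of 0.28 (0.08 to 0.47) and −0.06 (−0.26 to 0.15).

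*Col4a1* encodes the alpha1 chain of collagen IV, which forms a trimer with the product of its neighbour *Col4a2*. The genes lie head to head on chromosome 8, *Col4a1* from 11198423 to 11312826 on the minus strand and *Col4a2* from 11312805 to 11449287 on the plus strand, with overlapping ends. *Col4a1* had 262 and 332 counts in untreated and 342 and 493 in treated colonoids, and log2 differences of 0.21 (−0.02 to 0.45) and 0.70 (0.50 to 0.90). *Col4a2* had 355 and 341 counts, then 459 and 553, with differences of 0.20 (−0.00485 to 0.40) and 0.83 (0.63 to 1.03). For both, the interval included 0 on day 2 and lay above 0 on day 3. The *Col4a1* difference was larger on day 3 by 0.49 (0.18 to 0.79).

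Between the days, *Nid1* was the only one of the 9 genes past 1.5-fold in untreated colonoids. It was at least 2-fold higher on day 3, against backgrounds of 6.82% (1.5-fold) and 2.66% (2-fold), and 0 genes were lower by 1.5-fold or by 2-fold (5.17% and 1.82%). In treated colonoids 1 gene, *Col4a1*, was at least 1.5-fold higher on day 3 (9.66%), with 0 at 2-fold (3.67%), and 1, *Nid1*, was lower at both limits (11.9% and 4.95%). The *Col4a1* value was 0.78 (0.58 to 0.98).

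Ranked by normalised counts per kb of exon, untreated colonoids on day 2 held most *Lamb3* (465), *Agrn* (266), *Lamc1* (197) and *Lamb2* (111). *Lama3* (77.2) and *Lama5* (69.7) came next, with overlapping intervals, before *Col4a1* (35.9), *Hspg2* (13.2) and *Nid1* (6.48). With butyrate on the same day, the intervals of *Lama5* (246) and *Lamc1* (248) overlapped, and *Hspg2* reached 72.9. Those of *Lama3* (49.6, 45.6 to 53.7) and *Col4a1* (41.6, 37.3 to 46.2) overlapped only at their ends. Overlap does not show that 2 levels are equal. On day 3 the untreated levels of *Hspg2* (16.3) and *Nid1* (15.1) had overlapping intervals. With butyrate on day 3, *Lama5* (345) stood above *Lamc1* (261), *Hspg2* (86.6) above *Col4a1* (71.3), and *Lama3* (37.6) above only *Nid1* (11.2). Some of these places depend on the length used, by settings chosen after seeing the data. Per kb of the longest coding transcript, the intervals of *Lamc1* (269) and *Lama5* (246) with butyrate on day 2 no longer overlapped, and those of *Hspg2* (87.3) and *Col4a1* (80.5) with butyrate on day 3 did. By its short transcript *Lama3* had 149 and 127 in untreated and 95.9 and 72.8 in treated colonoids, which put it at place 4 of 9 without butyrate and at places 6 and 7 with it. *Lamb3* and *Agrn* held the top places in all 4 libraries. *Nid1* came last in 3 of them, and in untreated colonoids on day 3 it came last by exon length but above *Hspg2* (17.2 against 16.4) per kb of the longest coding transcript.

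Genes with a pattern like that of *Hspg2* were sought by the Euclidean distance of log2 normalised counts, centred per gene over the 4 libraries, among 10786 genes averaging 100 or more. The nearest 5 were *Crip2* (0.25), *Sema3f* (0.29), *Krt4* (0.31), *Msi1* (0.46) and *Snhg11* (0.47). *Lama5* followed at rank 6, with a distance of 0.51. *Lamb2* had rank 175, *Col4a1* 603, *Agrn* 718, *Lamc1* 1551, *Lamb3* 2800 and *Lama3* 10601, and *Nid1* fell under the level minimum. Over only 4 libraries this distance mainly restates the differences with butyrate.

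Of 28 other basement membrane components, 14 passed the count filter. On day 2, 3 of them were at least 1.5-fold higher and 0 lower, and on day 3, 6 were higher and 3 lower. Of all tested genes, 13.1% were higher and 8.90% lower on day 2 and 9.50% and 8.53% on day 3. The list had a median of 0.14 on both days. *Col7a1*, the collagen of anchoring fibrils, had log2 differences of 0.71 (0.31 to 1.13) and 0.65 (0.21 to 1.11). *Fbln1*, for a secreted fibulin, had 0.51 (0.40 to 0.63) and 1.14 (1.02 to 1.25), and *Col18a1*, for a collagen with heparan sulphate chains, 1.27 (1.01 to 1.55) and 0.22 (−0.07 to 0.52). Of the 14 genes, 5 were higher on both days (30.4% of all tested genes), 1 was lower on both (31.3%) and 8 had opposite directions. Of these 8, only *Smoc2* had intervals that excluded 0 on both days. Among those named after their values were seen, the 3 lower on day 3 were *Hmcn1* (0.09 and −2.78, on 2 to 21 counts), *Ntn4* (0.02 and −1.14) and *Smoc1* (0.19 and −0.71, on 8 to 15 counts), and *Smoc2* had −0.31 and 0.70.

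All 11 receptors and co-receptors on the list were tested, with medians of −0.31 and −0.02. *Bcam*, for a receptor of the laminin alpha5 chain, had 161 and 244 counts in untreated and 863 and 461 in treated colonoids. Its log2 differences were 2.24 (2.01 to 2.50) on day 2 and 1.04 (0.82 to 1.28) on day 3, and it was the 1 receptor of 11 at least 1.5-fold higher on both days (5.51% of all tested genes). *Itga2* was the 1 receptor at least 1.5-fold lower on both days (2.73%). It lay just past that limit, which its intervals included on both days (−0.65 to −0.53 and −0.67 to −0.55). *Itga2* and *Itga1*, for collagen-binding integrin chains, had −0.59 and −0.61, and −0.39 and −0.99. *Itgb4*, for an integrin chain of hemidesmosomes, had −0.56 and −0.14.

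Of 20 tested genes that build or edit heparan sulphate, the sugar of perlecan and agrin, 0 were at least 1.5-fold higher on either day, 3 were lower on day 2 and 1 on day 3, with medians of −0.19 and 0.03. The shares of all tested genes were 13.1% and 9.50% higher and 8.90% and 8.53% lower, so the counts of lower genes were near the background. The sulphotransferase gene *Hs3st1* was at least 1.5-fold lower on both days, at −0.82 (−1.07 to −0.57) and −0.91 (−1.21 to −0.62). Other heparan sulphate proteoglycans, 9 of them tested, had medians of −0.32 and 0.05. On each day 2 of them were at least 1.5-fold higher (13.1% and 9.50% of all tested genes) and 2 lower (8.90% and 8.53%). *Spock2* was higher on both days (1.36 and 0.66) and the glypican gene *Gpc6* lower (−0.996 and −1.74). The glypican genes *Gpc3* (3.07 and 0.24, on 4 to 46 counts) and *Gpc2* (−0.79 and 0.73), named after their values were seen, differed between the days.

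Of 11 tested genes of collagen processing and cross-linking, 4 were at least 1.5-fold higher on each day (13.1% and 9.50% of all tested genes), 3 of them on both days (5.51%). On day 2, 1 was lower, *Loxl2* at −0.95 (8.90%), and on day 3, 0 were (8.53%). *Pxdn*, named after its values were seen, had −0.49 on day 2 and 1.23 on day 3. The medians were 0.27 and 0.12. *P3h4*, from a complex that acts in collagen lysine hydroxylation, had 33 and 38 counts in untreated and 201 and 85 in treated colonoids, and log2 differences of 2.40 (1.90 to 3.01) and 1.27 (0.72 to 1.88). The lysyl hydroxylase genes *Plod1* (1.14 and 0.96) and *Plod2* (0.91 and 1.48) were likewise higher. The 12 tested matrix proteases and inhibitors had medians of 0.29 and 0.09. The cathepsin gene *Ctsl* had 1.16 and 0.38.

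**Figure D4:**
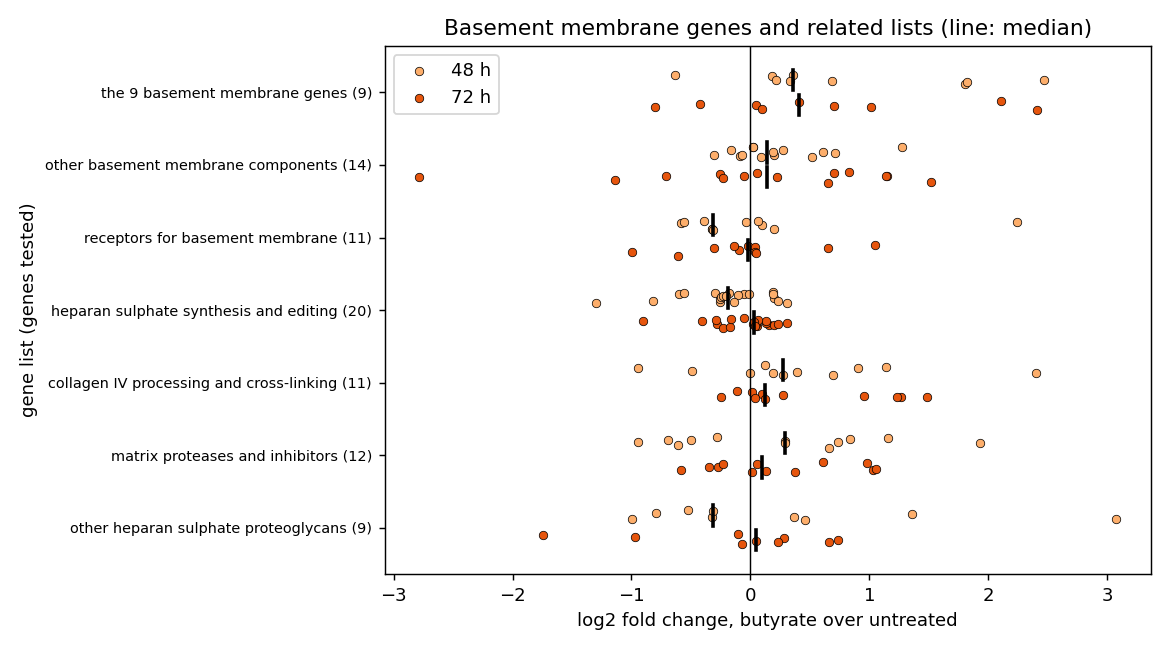
Log2 differences between treated and untreated colonoids for each tested gene among the 9 basement membrane genes and 6 related lists, with 1 point per gene at 48 h (day 2) and 72 h (day 3) and lines at the medians. The medians of the 9 genes (0.35 and 0.41), which were chosen on these contrasts, are higher than those of the 6 lists, and the heparan sulphate synthesis list has −0.19 and 0.03.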

How the data were processed

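Poly-A RNA was sequenced from 4 mouse colonoid cultures, which the study traces to 1 mouse. The authors deposited counts per gene, estimated by kallisto 0.44.0 on GRCm38.p6 (submitters' processing notes), summed to genes with tximport and held as whole numbers without normalisation. Reads shared by transcripts are divided by estimate. The transcriptome annotation is not given in the sources used here.

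The filter, above 10 counts in 2 libraries or more, and the size factors (DESeq2 1.42.0 in R 4.3.3) follow the methods of the study. TMM factors came from edgeR 4.0.16. Intervals of log2 differences are exact Clopper-Pearson intervals on pairs of counts, those of levels exact Poisson intervals, and those of chain shares and of gaps between days normal approximations. All cover counting error only, as does the limit of 3 counts, and reads carry no molecular identifiers. Exon lengths came from GENCODE M21. Calculations (Python 3.11.15, scipy 1.17.1) were tested on simulated data.

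The 9 members and all lists were chosen with earlier results of these data known. From each related list the text drew on up to 4 genes, those with the largest smaller-of-both log2 difference of 1 sign on both days, plus trimer partners. Some genes that this rule names are not reported here. With 1 library per condition no p-value was computed. Other scalings, a pseudocount of 5, thinning to the smallest total, other filters and other lengths were tried.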

Additional observations from a re-analysis of the deposited data

Results flagged for a closer look

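*Nid1* had a log2 difference of 1.80 on day 2 and −0.42 on day 3, opposite directions, though the day 3 interval (−0.88 to 0.02) includes 0. *Lamb1* had −0.0861 (−0.54 to 0.37) and 1.14 (0.61 to 1.73), on 82 and 42 counts without butyrate and 87 and 86 with it. Its day 2 interval includes 0, so no lower value on that day is shown. The median of the heparan sulphate synthesis genes was −0.19 and 0.0335, and that of the other heparan sulphate proteoglycans −0.32 and 0.0500. These differences between the days were not tested, because each condition has 1 library.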

How the results depend on the processing

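The labels give no replicate numbers, and a fit that takes the days as pairs was not run, since these contrasts chose the genes. Of 684 recomputed log2 differences of single genes, 683 stayed within their counting intervals. The exception was *Lamb3* between the days in untreated colonoids, at −0.06 with total count scaling. The median of the receptors on day 3 became 0.04 with that scaling. The median of the 9 genes ranged from 0.34 to 0.37 on day 2 and from 0.40 to 0.46 on day 3. With a pseudocount of 5, 0 of the 9 genes in place of 1 (*Nid1*) were at least 2-fold lower on day 3 than on day 2 with butyrate. With thinning, 0 in place of 1 (*Lama3*) were at least 1.5-fold lower with butyrate on day 2, and 2 in place of 3 were at least 2-fold higher on day 3, *Lamb2* having 0.996.

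The background shares moved with the gene filter. Without a filter, 21% of genes were at least 1.5-fold higher and 14.9% lower on day 2, and 11% and 9.4% at 2-fold. On day 3 these were 15.8% and 17.2%, and 10.6% and 8.25%. Among genes averaging 50 normalised counts or more, 3.93% were at least 2-fold higher and 1.54% lower on day 2. On day 3 these were 2.33% and 1.6%, and at 1.5-fold 5.88% and 5.13%. Total count scaling moved the median of all tested genes by 0.05 on day 3.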
